A study of Mus musculus with 6 samples.

Results

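Skeletal stem cells are sorted by proteins on their surface, and the genes of 10 such proteins were followed here in label-retaining chondrocytes (LRCs) of the mouse growth plate and in their more rapidly dividing neighbours (non-LRCs). The genes were *Cd200* (CD200), *Nt5e* (CD73), *Thy1* (CD90), *Eng* (CD105), *Ly6a* (Sca-1), *Pdpn* (podoplanin), *Mcam* (CD146), *Enpep* (6C3), *Cd44* and *Cd34*. They were chosen by name, as proteins used to sort skeletal stem and progenitor cells, and are 10 of the 23159 genes counted. Per the study's methods, epiphyses of the lower femur and the upper tibia were dissected with most of the growth plate attached. Cells were freed from them with collagenase. The paper reports that this emptied the growth plate and left cells of the articular surface largely undigested. RNA was sequenced in 6 libraries from 3 experiments, each with 1 LRC and 1 non-LRC library. The question was whether slow-cycling chondrocytes carry these genes at other levels than the cells around them.

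Both groups came from mice of 1 genotype, homozygous for 4 alleles. These are Peli2(Col2a1-tTA/Col2a1-tTA), the tTA driver, then Col1a1(TRE-H2B-GFP/TRE-H2B-GFP), the histone label, together with Col2a1-creER/Col2a1-creER and the reporter R26R(tdTomato/tdTomato). The promoter of *Col2a1*, the gene of the main cartilage collagen, drives the tTA that switches on the H2B-GFP histone label, and also the creER that makes cells red with tdTomato after tamoxifen. All mice received doxycycline from P21 to P49, which stops new label so that each division dilutes it, and tamoxifen at P46 and P47, and all cells were taken at P49. LRCs were the tdTomato+ cells with high H2B-GFP (about 10000 cells) and non-LRCs those with middle to low H2B-GFP (about 50000 cells). Per the study's methods, both fractions were CD45-negative and each experiment pooled several littermates, so that no library stands for a single mouse. The groups thus share every allele and agent and differ in the gate on the label and in the number of cells.

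In mouse bone, skeletal stem cells have been sorted as cells with CD200 and integrin αV that lack Thy-1, 6C3 and CD105. In human bone they have been sorted with podoplanin, CD73 and CD164 and without CD146. CD44, Sca-1 and CD34 are used for broader stromal and blood-forming progenitors. These proteins are not only labels: CD73 is an enzyme that makes adenosine outside the cell, CD44 is the main receptor for the hyaluronan of the cartilage matrix, and CD105 is a co-receptor of the TGFβ family.

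Total counts per library ranged from 18943789 in the LRC library of experiment 2 to 129559872 in that of experiment 1, so that 1 count stood for between 0.00856 and 0.0478 CPM (a gene's count relative to its library's total, scaled here with the TMM factors of edgeR). The shallow LRC library of experiment 2 had 1731 of the 13728 tested genes at 0 counts, against 4 to 365 in the other libraries. All libraries carried the cartilage label: *Col2a1* was at 63409 to 189528 CPM. Of 11 tested chondrocyte markers, 10 were lower in LRCs, and none was a DEG by the test given below. Of 15 endothelial markers, 5 had enough counts to be tested, while *Cdh5*, *Kdr*, *Emcn*, *Sox17* and *Robo4* were at 0 counts in all 6 libraries. The leukocyte gene *Ptprc*, whose protein CD45 the sort excluded, was at 0 in 5 of 6. Of 14 leukocyte markers, 6 were tested. The list summed to 6.77 to 11.3 CPM in LRCs and 4.22 to 5.18 CPM in non-LRCs. Of the markers of superficial cartilage and synovium, 12 of 12 tested were higher in LRCs, with summed levels of 4715 to 6391 CPM in LRCs and 1692 to 2550 CPM in non-LRCs. In sorted bulk samples, fewer cells that carry a transcript and less of it per cell cannot be told apart.

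Per length of transcript, the 10 genes spanned nearly the whole range of expression. *Nt5e* stood at the top with a level of 352.5 ± 81.8 CPM per kb of exon in LRCs (mean ± s.d., n = 3) and 277.7 ± 12.7 in non-LRCs, which placed it 78th and 97th of the 12386 tested genes with a known length. *Cd44* followed with 87.3 ± 25.3 CPM per kb in LRCs and 54.7 ± 22.4 in non-LRCs, and *Ly6a* with 58.2 ± 52.6 and 47.8 ± 33.6. These levels of *Cd44* and *Ly6a* do not differ beyond their spread in either group. *Pdpn* came next at 17.4 ± 10.8 and 11.4 ± 4.79 CPM per kb.

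The remaining genes lay around or under the median gene, whose level was 3.11 CPM per kb in LRCs and 3.03 in non-LRCs. *Cd200* had 2.70 ± 1.32 CPM per kb in LRCs, on rank 6552, and 5.75 ± 3.41 in non-LRCs, on rank 4456. *Mcam* had 1.81 ± 1.73 and 1.62 ± 1.4 CPM per kb. *Eng* had means of 0.957 in LRCs and 0.867 in non-LRCs, and *Enpep*, *Cd34* and *Thy1* were close to 0. In LRCs, the spreads of *Cd200*, *Mcam* and *Eng* overlapped, so that their order is not set by these libraries. The order of the 10 genes by mean level was the same in both groups except for *Cd34* and *Thy1*, the lowest 2, which changed places.

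**Figure D1:**
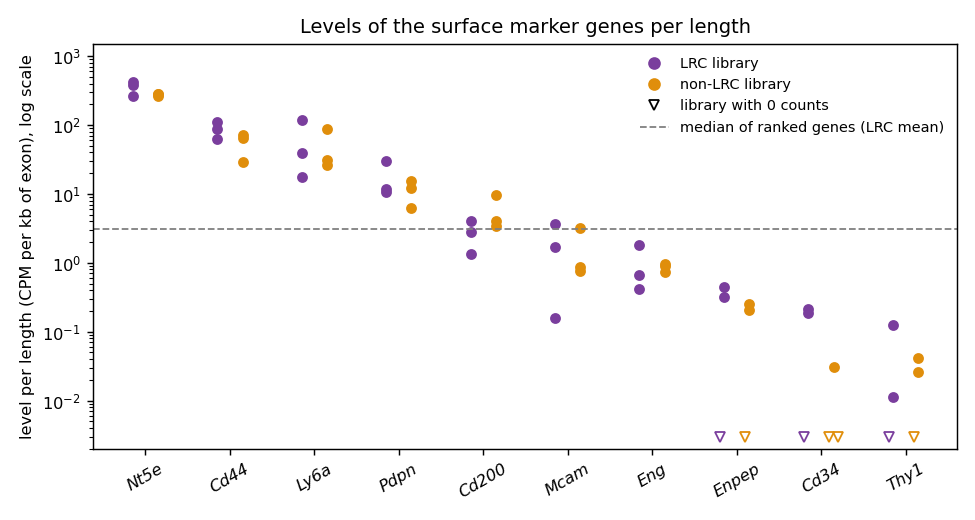
Level of each surface marker gene per length, in CPM per kb of exon on a log scale, in the 3 LRC libraries (purple) and the 3 non-LRC libraries (orange), with open triangles at the lower edge for libraries at 0 counts. The dashed line is the median of the ranked genes in LRCs, 3.11 CPM per kb; *Nt5e*, *Cd44*, *Ly6a* and *Pdpn* lie above it in every library and *Enpep*, *Cd34* and *Thy1* below it in every library.

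None of the 10 genes was a differentially expressed gene (DEG), that is, none changed at least 2-fold with an adjusted p below 0.05 in edgeR's quasi-likelihood test with the experiment as a block. Of the 10, 9 had enough counts to be tested, and *Thy1* had not. Among all tested genes 1.21% were DEGs, 120 of them higher and 46 lower in LRCs, and DEG counts of the lists below stand beside this share. An unadjusted p below 0.05 was reached by 2 of the 9, *Cd44* and *Cd200*, where 18.4% of all tested genes reached it. *Cd44* was higher in LRCs in all 3 experiments and *Cd200* lower in all 3, and 46.5% of all tested genes moved in 1 direction throughout. In none of the 9 did the LRC and non-LRC libraries separate without overlap, as they did in 18.7% of genes. DESeq2 with the same block called 1 of the 9, *Cd200*, against 5.81% of genes, and gave an adjusted p below 0.05 at any fold change to 2, against 12.3%. None of these counts stands above its background share of 9 genes by as much as 1 gene.

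**Figure D2:**
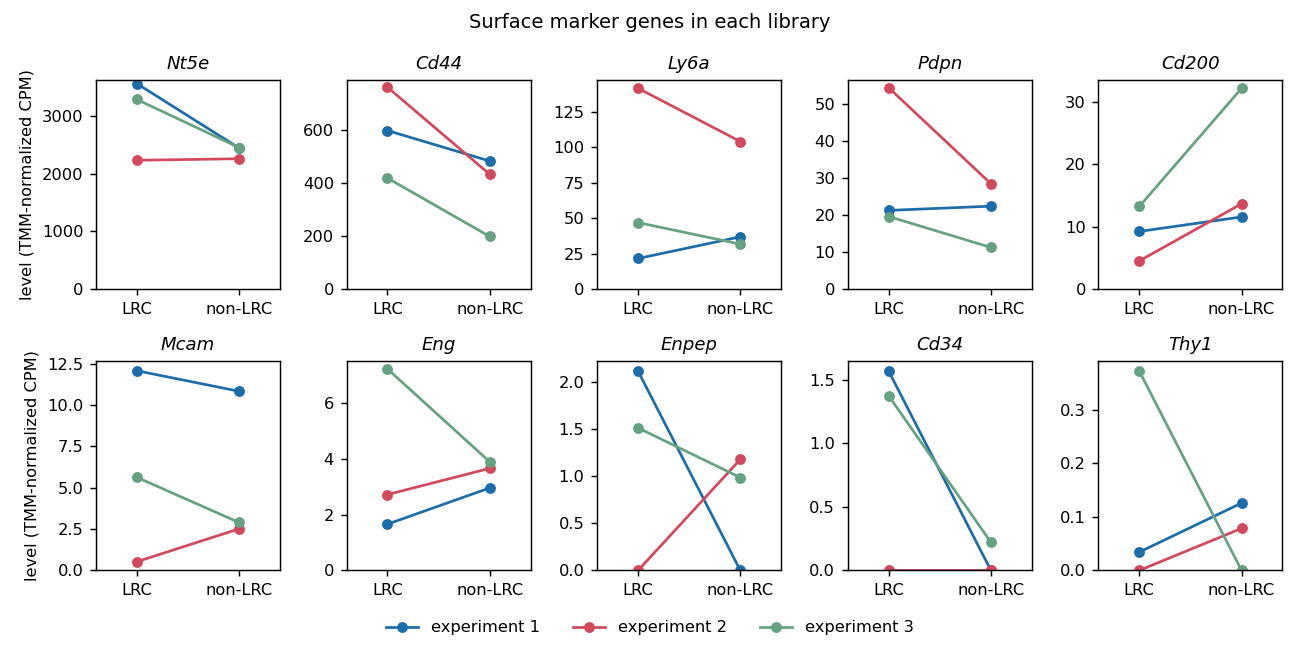
Level of each surface marker gene in TMM-normalized CPM (linear axes that start at 0), with a line joining the LRC and non-LRC libraries of each of the 3 experiments. For *Cd44* all 3 lines fall from LRC to non-LRC and for *Cd200* all 3 rise, while for *Ly6a* experiment 2 is highest in both groups.

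*Nt5e* encodes CD73, the enzyme anchored to the cell surface that turns AMP into adenosine. The gene lies on chromosome 9 (chr9:88327197-88372092, plus strand, GRCm38). Its level in experiments 1, 2 and 3, an order kept throughout, was 3568, 2236 and 3293 CPM in LRCs and 2448, 2263 and 2456 CPM in non-LRCs. The non-LRC libraries were close together, the LRC libraries of experiments 1 and 3 were above them, and that of experiment 2 was on their level. The means were 3032 ± 703 and 2389 ± 109.5 CPM, and the fitted log2 fold change (LRC minus non-LRC) was 0.32 ± 0.17 (SE), with an adjusted p of 0.386 in edgeR. Its 95% interval ran from 0.933-fold to 1.66-fold. *Nt5e* and *Ly6a* were the 2 genes whose interval lay within a 2-fold change both ways. Both fractions therefore carried abundant CD73 transcript, at levels that were not separated by more than their spread.

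The enzymes before and after CD73 were read from a list of 15 adenosine genes, of which 12 were tested and none was a DEG. In LRCs, 4 of them were higher and 8 lower, at a median log2 fold change of -0.37, against -0.10 over all tested genes. *Enpp1*, an enzyme that makes AMP from ATP, was at 397 to 800 CPM in all libraries, while *Entpd1* (CD39), which degrades ATP and ADP to AMP, was at 0 in 3 libraries and at most at 3.73 CPM. *Adk*, the kinase that removes adenosine, had the smallest p. It had 229.9, 223 and 288 CPM in LRCs and 334, 467 and 590.4 CPM in non-LRCs, a log2 fold change of -0.88 with an adjusted p of 0.070 in edgeR. *Alpl*, the alkaline phosphatase that also releases phosphate from AMP and counts as a marker of hypertrophy, came second with -0.93 and an adjusted p of 0.075. Among the genes higher in LRCs, *Slc29a1* and *Adora1* had log2 fold changes of 0.61 and 1.57, with adjusted p of 0.113 and 0.125 in edgeR. For both, all LRC libraries were above all non-LRC libraries. None of these genes passed the test.

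*Cd44* encodes the hyaluronan receptor, and was the gene of the 10 with the smallest p. It lies on the minus strand of chromosome 2 (chr2:102811141-102901665) with 8 coding transcripts, which the counts per gene add up. LRC libraries had 597, 760.4 and 418 CPM and non-LRC libraries 482, 432 and 198 CPM. Within each experiment the LRC library was the higher one, but the LRC library of experiment 3 lay below the non-LRC libraries of experiments 1 and 2, so that the groups overlapped. Means were 592 ± 171 and 371 ± 152 CPM. The fitted difference was 1.66-fold, a log2 fold change of 0.73 ± 0.19 (SE), with a 95% interval of 0.28 to 1.19, an unadjusted p of 0.008 and an adjusted p of 0.120 in edgeR over all tested genes. DESeq2 gave it an adjusted p of 0.003 and limma-voom 0.017, at log2 fold changes of 0.74 and 0.71, below the 2-fold threshold in both. The superficial and synovial markers, among which *Prg4* (lubricin) had 109 to 1017 CPM in LRCs and 3.22 to 29.5 CPM in non-LRCs, were higher in the same libraries and held 5 DEGs (*Prg4*, *Cilp*, *Cilp2*, *Clu* and *Thbs4*), with *Clec3b* at 0 in all 6 and *Pi16* in 5 of 6. *Prg4* is not only a gene of the joint surface. The paper detected its mRNA by in situ hybridization in the resting zone, the growth plate layer where it places LRCs, more faintly than at the articular surface. The part of these markers in the level of *Cd44* was not tested.

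Among 10 further genes of hyaluronan and CD44 ligands in the count table, 8 were tested, with 6 higher and 2 lower in LRCs and a median log2 fold change of 0.35. *Srgn*, the core protein of serglycin, a proteoglycan that CD44 binds, rose in LRCs. It had 32.6, 153 and 51.7 CPM in LRCs and 11, 48.5 and 17.0 CPM in non-LRCs. Each LRC library was about equally far above its partner, with within-experiment log2 changes of 1.56, 1.66 and 1.6, and the fitted change was 1.61 ± 0.16 (SE) with an adjusted p of 0.019 in edgeR. The level of *Srgn* also differed between experiments, and the groups overlapped. *Has2*, a hyaluronan synthase of cartilage, had 70.3 to 148 CPM in LRCs and 71.0 to 172 CPM in non-LRCs. The synthase *Has1* had 47.0 to 135.9 CPM in LRCs and 47.7 to 72.9 CPM in non-LRCs, a log2 fold change of 0.50 with an adjusted p of 0.301 in edgeR. *Spp1* (osteopontin), another CD44 ligand, had 398 to 1728 CPM in LRCs and 416 to 1683 CPM in non-LRCs.

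*Ly6a* encodes Sca-1, a small GPI-anchored protein of many stem and progenitor cells. It is 1 of a cluster of like genes on chromosome 15, and 19% of the 50-base stretches of its transcripts (246 of 1297) also occur in another gene, most of them (195) in *Ly6c1*. Reads of 50 bases from these stretches cannot be assigned, and the counts used only unambiguous reads. To show how alike the genes are, the first 30 coding bases are given here from GENCODE vM21 on GRCm38, with capitals for bases that differ from *Ly6a* when the sequences are laid side by side from the start codon. They lie at chr15:74997575-74997604 (minus strand) for *Ly6a*, at chr15:75048482-75048511 (minus strand) for *Ly6c1* and at chr15:74957808-74957837 (plus strand) for *Ly6e*.
Ly6a: atggacacttctcacactacaaagtcctgt
Ly6c1: atggacacttctcacactacaaagtcctgt
Ly6e: atgTCTGcCActTCcaACaTGaGAGTctTC
The stretch is the same in *Ly6a* and *Ly6c1* and differs in 18 of 30 bases in *Ly6e*. It is only the start of the coding sequence and is shorter than a read. Counts of *Ly6a* and *Ly6c1* are uncertain where they share the 50-base stretches counted above, which are the smaller part of *Ly6a*.

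*Ly6a* had 21.5, 141.8 and 46.9 CPM in LRCs and 36.8, 104.2 and 31.7 CPM in non-LRCs. The libraries of experiment 2 were the highest of both groups, and the groups overlapped fully. Means were 70.1 ± 63.4 and 57.6 ± 40.5 CPM, and the log2 fold change was 0.08 ± 0.29 (SE, adjusted p = 0.904 in edgeR), with a 95% interval from 0.647-fold to 1.74-fold. The mean log2 levels of the experiments lay 2.11 apart, whereas the mean change between the groups was 0.08. The levels of *Ly6a* thus differed more between experiments than between LRCs and non-LRCs.

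The same order of experiments was seen in both relatives shown above. *Ly6c1* had 14.6, 63.5 and 26.7 CPM in LRCs and 29.4, 60.3 and 24.2 CPM in non-LRCs. *Ly6e*, a broadly expressed relative, had 55.3, 130.1 and 55.8 CPM in LRCs and 34.4, 66 and 25.8 CPM in non-LRCs. It was higher in the LRC library of every experiment, by a log2 fold change of 0.93 ± 0.17 (SE) with an adjusted p of 0.063 in edgeR. Of 14 genes of the Ly6 family, 13 were in the count table and 6 were tested, 3 of them higher and 3 lower in LRCs, and none was a DEG. *Ly6c2* had the next smallest p, with an adjusted p of 0.430 in edgeR.

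*Pdpn* encodes podoplanin, a mucin-like protein that binds the platelet receptor CLEC-2 and links the membrane to the actin skeleton. It had 21.2, 54.3 and 19.5 CPM in LRCs and 22.3, 28.4 and 11.2 CPM in non-LRCs. In experiments 2 and 3 the LRC library was higher, and in experiment 1 the libraries were nearly level, with within-experiment log2 changes of -0.07, 0.94 and 0.80. The fitted log2 fold change was 0.55 ± 0.27 (SE), with an interval of -0.10 to 1.21 and an adjusted p of 0.340 in edgeR. A difference of 2-fold is therefore within the interval, as is none.

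Of 7 podoplanin partners, 5 were tested and none was a DEG. *Msn* (moesin), which ties podoplanin to actin, was at 622 to 977 CPM in LRCs and 555 to 664 CPM in non-LRCs, a log2 fold change of 0.41 with an adjusted p of 0.239 in edgeR. *Cd9*, a tetraspanin that binds podoplanin, was at -0.37 with an adjusted p of 0.240 in edgeR. *Clec1b*, the gene of CLEC-2 itself, had 0 counts in 5 of the 6 libraries.

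*Cd200* encodes a membrane protein that quiets immune cells through the receptor CD200R, and is the positive marker of the mouse sort. It lies at chr16:45382135-45409053 on the minus strand, and shares no 50-base stretch with another gene. LRC libraries had 9.21, 4.49 and 13.2 CPM and non-LRC libraries 11.5, 13.6 and 32.1 CPM, from 94 to 1597 counts per library. Each LRC library was below its partner, by log2 changes of -0.32, -1.60 and -1.28, while the LRC library of experiment 3 was above the non-LRC library of experiment 1. Means were 8.98 ± 4.37 and 19.1 ± 11.3 CPM. The fitted level was 2.09-fold higher in non-LRCs, a log2 fold change of -1.06 ± 0.34 (SE), with an interval of -1.89 to -0.23, an unadjusted p of 0.020 and an adjusted p of 0.181 in edgeR.

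The call on *Cd200* depended on the tool. DESeq2 with the same block gave -1.05 and an adjusted p of 0.043, which makes it a DEG there, and limma-voom gave -0.86 and an adjusted p of 0.0999. The paper, which used DESeq2 in a paired model, names *Cd200* among the genes higher in non-LRCs. With 1 experiment left out, the log2 fold change was -1.44 without experiment 1, -0.80 without experiment 2 and -0.94 without experiment 3. The highest level of *Cd200*, in the non-LRC library of experiment 3, was found in the library that also had the highest level of *Col10a1*, the collagen of hypertrophic chondrocytes (263.9 CPM, against 0.143 to 76.0 CPM in the other libraries). Of the 10 hypertrophic markers, all tested, 9 were lower in LRCs and 2 were DEGs, *Panx3* (log2 fold change -4.01) and *Mef2c* (-2.35), each with an adjusted p of 0.018 in edgeR. Their summed level was 959 to 2103 CPM in LRCs and 1202 to 3157 CPM in non-LRCs, and *Ihh* was at 0 in 2 libraries. Their part in the level of *Cd200* was not tested.

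The receptor of CD200, *Cd200r1*, is mainly a gene of myeloid cells and was low. It had 0.745, 1.0 and 0.791 CPM in LRCs and 1.84, 6.60 and 2.82 CPM in non-LRCs. Each non-LRC library was above all LRC libraries, and the log2 fold change was -1.94 ± 0.70 (SE), with an adjusted p of 0.224 in edgeR. *Sirpa*, the receptor for the related signal CD47, was at 28.3 to 32.6 CPM in LRCs and 10.8 to 18.3 CPM in non-LRCs, a log2 fold change of 1.03 with an adjusted p of 0.107 in edgeR. All 5 genes of this receptor list were tested, with 2 higher and 3 lower in LRCs, and none was a DEG. Leukocyte markers summed to 6.77 to 11.3 CPM in LRCs and 4.22 to 5.18 CPM in non-LRCs, and their part in the levels of these receptors was not tested.

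**Figure D3:**
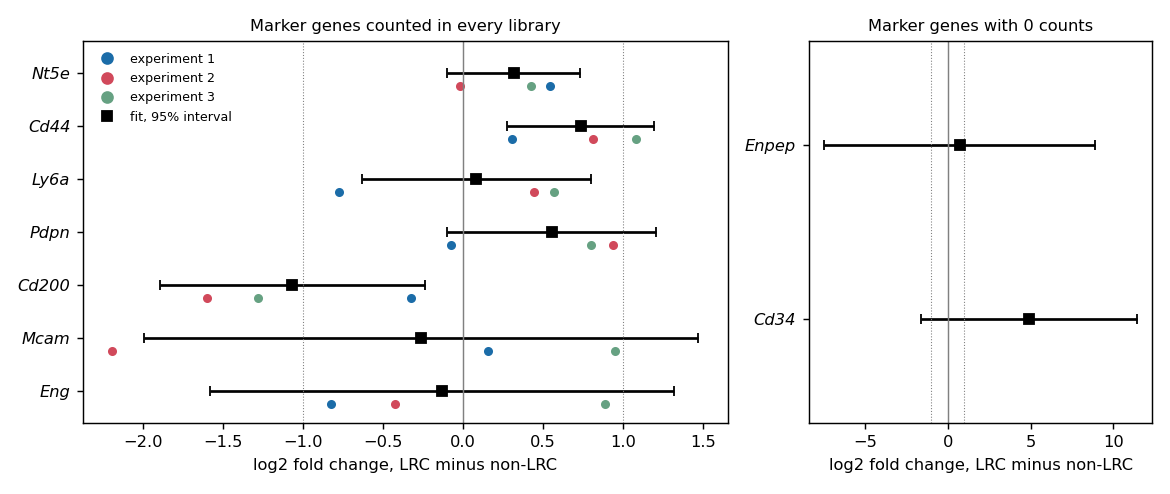
Log2 fold change (LRC minus non-LRC) of the 9 tested surface marker genes from the edgeR fit (squares) with 95% intervals (bars), and the changes within experiments 1, 2 and 3 (coloured points) for genes counted in every library. Dotted lines mark a 2-fold change; the intervals of *Cd44* and *Cd200* lie on 1 side of 0, and those of *Enpep* and *Cd34* (right, another scale, a fit that depends on how 0 counts are treated) reach past a 2-fold change in both directions.

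*Eng*, *Enpep* and *Thy1* are the genes of the negative gate of the mouse sort, and all 3 were low in both fractions. *Eng* encodes endoglin, the co-receptor for TGFβ and BMP9. It had 1.66, 2.72 and 7.24 CPM in LRCs and 2.96, 3.67 and 3.90 CPM in non-LRCs. The LRC library of experiment 3 was the highest of all and that of experiment 1 the lowest, on both sides of the non-LRC libraries. Within-experiment log2 changes were -0.82, -0.42 and 0.89, and the fitted change was -0.13 ± 0.59 (SE, adjusted p = 0.928 in edgeR), with an interval of -1.58 to 1.32, which holds a 2-fold difference in either direction. On the genome (chr2:32646595-32682669, plus strand), 61 exon bases of *Eng* overlap *Fpgs* on the other strand, which was at 18.3 to 24.5 CPM. The kit named in the labels does not keep the strand, and the part of *Fpgs* in the level of *Eng* was not tested.

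The genes that work with endoglin held 2 DEGs, both on the side of the TGFβ ligands and co-receptors, where 1.21% of all tested genes were DEGs. Of 16 genes, 13 were tested, with 10 higher and 3 lower in LRCs and a median log2 fold change of 0.51, against -0.10 over all genes. *Tgfbr3* (betaglycan), the other co-receptor for TGFβ, rose in LRCs. It had 368, 153 and 327 CPM in LRCs and 147, 73.3 and 90.9 CPM in non-LRCs. All LRC libraries were above all non-LRC libraries, and the log2 fold change was 1.41 ± 0.19 (SE), with an adjusted p of 0.039 in edgeR. *Tgfb3*, 1 of the TGFβ ligands, also rose: it had 117, 73.3 and 85.9 CPM in LRCs and 52.8, 36.5 and 47.3 CPM in non-LRCs, a log2 fold change of 1.0 ± 0.15 (SE) with an adjusted p of 0.049 in edgeR. *Tgfbr2*, the receptor that binds the ligand, was at 292 to 569 CPM in LRCs and 176 to 349 CPM in non-LRCs, with an adjusted p of 0.063 in edgeR. *Gdf2* (BMP9) and *Bmp10*, the ligands that endoglin binds directly, had 0 counts in every library.

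*Enpep* encodes the aminopeptidase that cuts angiotensin II, named 6C3 on stromal cells. It had 247, 0 and 65 counts in LRCs (2.12, 0 and 1.51 CPM) and 0, 45 and 49 counts in non-LRCs (0, 1.18 and 0.986 CPM). Each group held 1 library at 0, and these came from different experiments. Taking 3 counts as the most that a count of 0 allows, *Enpep* was at least 72.8-fold higher in LRCs in experiment 1 and at least 8.22-fold lower in experiment 2, and its level in LRCs was 1.53 times that in non-LRCs in experiment 3. These bounds cover only the counting error of the 0 and take the other count as exact. They leave out the spread between pools. The fit gave an adjusted p of 0.929 in edgeR, and its log2 fold change, 0.72 ± 3.35 (SE), depends on how the 0 counts are treated.

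*Ace*, which makes the angiotensin II that 6C3 degrades, rose in LRCs. Its levels were 47.6, 14.2 and 33.1 CPM in LRCs and 12.0, 3.72 and 6.88 CPM in non-LRCs. Every LRC library was above every non-LRC library, and the log2 fold change was 2.06 ± 0.23 (SE), with an adjusted p of 0.027 in edgeR. Of the 10 angiotensin and aminopeptidase genes, 7 were tested, and in LRCs 2 of them were higher and 5 lower, at a median log2 fold change of -0.23. *Agtr1b*, a receptor of angiotensin II, had 0 counts in all libraries, but other receptors of the list were counted. *Agtr1a* had 82, 0 and 20 counts in LRCs and 92, 10 and 17 in non-LRCs. *Agtr2* had 18, 0 and 0 counts in LRCs and 40, 62 and 6 in non-LRCs.

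*Thy1* encodes a GPI-anchored protein of fibroblasts, thymocytes and neurons. Its counts were 4, 0 and 16 in LRCs and 13, 3 and 0 in non-LRCs, at most 0.372 CPM, and was too low to be tested. In experiment 3 it was at least 6.17-fold higher in LRCs if the 16 counts are taken as exact, which leaves out their counting error. In experiment 1 its level in LRCs was 0.272 times that in non-LRCs. A floor of 3 counts corresponds to 0.143 CPM in the shallowest library, the LRC library of experiment 2, which is above the levels of *Thy1* in the LRC library of experiment 1 and in all non-LRC libraries, but below the 0.372 CPM of the LRC library of experiment 3. Of 5 genes of proteins that Thy-1 binds, 3 were tested and none was a DEG. *Itgb5* had an adjusted p of 0.215 and *Itgb3* of 0.297 in edgeR.

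*Mcam* encodes CD146, an adhesion protein of endothelial cells, pericytes and marrow stroma, and the negative marker of the human sort. It had 12.1, 0.526 and 5.63 CPM in LRCs and 10.8, 2.51 and 2.90 CPM in non-LRCs. Both libraries of experiment 1 were high, and the LRC library of experiment 2, with 11 counts, was the lowest. Mean log2 levels of the experiments spanned 3.27, and the fitted log2 fold change was -0.26 ± 0.71 (SE, adjusted p = 0.876 in edgeR), with an interval of -1.99 to 1.47. The direction turned without experiment 2 (log2 fold change 0.54), without the block (0.17) and in limma-voom (0.21).

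Of the 10 pericyte and smooth muscle markers, 8 were tested, 4 higher and 4 lower in LRCs, and none was a DEG. *Rgs5*, a defining pericyte gene, was at 0 in 3 libraries and at most at 0.186 CPM, and *Kcnj8* was at 0 in 5 of 6. Other markers of the list were counted. *Pdgfrb* had 64.1, 11.2 and 33.8 CPM in LRCs and 28.2, 20.4 and 11.2 CPM in non-LRCs. *Acta2* had 0.009, 0 and 0.372 CPM in LRCs and 1.92, 0.602 and 0.724 CPM in non-LRCs. The part of such cells in the level of *Mcam* was not tested. *Cspg4*, which chondrocytes also express, made up most of the summed level of 566 to 1481 CPM in LRCs and 554 to 1378 CPM in non-LRCs. All 6 genes of CD146 ligands were tested and none was a DEG. *Ntn1* (netrin-1) was at 8.79 to 10.4 CPM in LRCs and 2.04 to 6.91 CPM in non-LRCs, with a log2 fold change of 1.55 and an adjusted p of 0.164 in edgeR. *Lama4*, the laminin chain of vessel walls, had an adjusted p of 0.591 in edgeR.

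*Cd34* encodes a sialomucin of blood-forming progenitors, endothelium and many stromal cells. It had 183, 0 and 59 counts in LRCs (1.57, 0 and 1.37 CPM) and 0, 0 and 11 counts in non-LRCs (0.221 CPM in experiment 3). In experiment 1 it was at least 54.0-fold higher in LRCs, with the 183 counts taken as exact. In experiment 3 its level in LRCs was 6.20 times that in non-LRCs, while in experiment 2 it was not detected in either library. The adjusted p was 0.385 in edgeR and 0.314 in DESeq2, and the fitted log2 fold change, 4.90 ± 2.54 (SE), depends on how the 0 counts are treated. Of the exon bases of *Cd34* (chr1:194938819-194961279, plus strand), 148 overlap the antisense gene *Gm16897*, whose counts were 14, 0 and 7 in LRCs and 0, 12 and 32 in non-LRCs. Reads of the overlap cannot be told apart without the strand.

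Endothelial cells are the other main source of *Cd34*, *Eng* and *Mcam*. None of the 5 tested endothelial markers was a DEG, and the summed level of all 15 was 20.6 to 76.4 CPM in LRCs and 28.7 to 64.3 CPM in non-LRCs, of which *Ly6c1* made up the larger share. *Pecam1* was at most at 0.681 CPM. *Podxl*, the nearest relative of *Cd34* in its family, was at 2.23 to 5.74 CPM in LRCs and 4.35 to 7.79 CPM in non-LRCs, with an adjusted p of 0.420 in edgeR. *Selp* (P-selectin), a receptor that binds sialomucins, was at 0, 0 and 0.303 CPM in LRCs and at 1.36, 0.733 and 1.43 CPM in non-LRCs, with an adjusted p of 0.257 in edgeR. The 5 genes of this list had 3 tested members and no DEG.

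A further 25 surface markers of skeletal progenitors were in the count table, of which 24 were tested. In LRCs, 9 of these were higher and 15 lower, at a median log2 fold change of -0.12. The 1 DEG was *Icam1*, an adhesion protein and a marker of osteogenic stroma. It had 332, 369.7 and 287 CPM in LRCs and 107, 142 and 82.1 CPM in non-LRCs. All LRC libraries were above all non-LRC libraries, and the log2 fold change was 1.61 ± 0.15 (SE), with an adjusted p of 0.018 in edgeR. *Pdgfra*, a receptor used with Sca-1 to sort marrow stromal cells, had a larger fitted difference and a wider error. It was at 51.8, 22.8 and 39.8 CPM in LRCs and 15, 7.51 and 5.19 CPM in non-LRCs, a log2 fold change of 2.10 ± 0.33 (SE) with an adjusted p of 0.051 in edgeR. *Cd24a* was the gene of this list with the smallest p among those lower in LRCs, at -1.08 with an adjusted p of 0.061 in edgeR.

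The other positive markers of the mouse and the human sorts were at like levels in both fractions. *Itgav* (integrin αV) had 245, 115 and 199.7 CPM in LRCs and 265, 168 and 148 CPM in non-LRCs, a log2 fold change of -0.07 ± 0.21 (SE). *Cd164* had 396, 364 and 452 CPM in LRCs and 417, 481 and 448 CPM in non-LRCs, a log2 fold change of -0.15 ± 0.15 (SE). The groups overlapped for both genes, with adjusted p of 0.880 and 0.638 in edgeR.

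**Figure D4:**
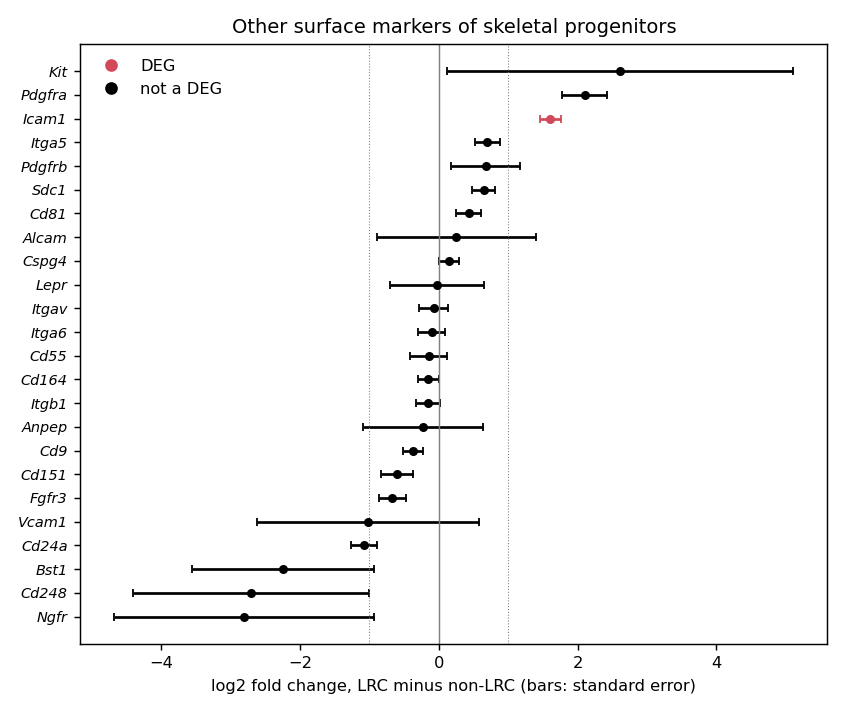
Log2 fold change (LRC minus non-LRC, edgeR fit) of the 24 tested other surface markers of skeletal progenitors, ordered by size, with bars for the standard error and dotted lines at a 2-fold change. *Icam1* (red) is the 1 DEG at 1.61; *Pdgfra* lies further out at 2.10 with a wider bar, and the 15 genes from *Lepr* down lie below 0.

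Over the ligands, receptors and enzymes that work with the 10 proteins, 80 genes in 9 lists, 79 were in the count table and 62 were tested. The LRC level was the higher one for 33 and the lower one for 29, at a median log2 fold change of 0.02. The 4 DEGs, *Srgn*, *Tgfbr3*, *Tgfb3* and *Ace*, were all higher in LRCs. Over all tested genes 1.21% were DEGs, with 120 higher and 46 lower in LRCs, so that this direction is not particular to the partner genes. Without experiment 1 none of the 4 was called, nor were *Icam1* and the superficial markers *Cilp* and *Cilp2*, and without the block none of these 7 was called either. *Tgfb3* was also not called without experiment 3 and after thinning all libraries to the smallest total.

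Sca-1, CD73 and Thy-1 are held in the membrane by a GPI anchor. The 24 genes of anchor synthesis were all tested, with 9 higher and 15 lower in LRCs, a median log2 fold change of -0.17 and no DEG. *Pigp* and *Pigu*, parts of the first and the last enzyme complex of the pathway, had the smallest p, with adjusted p of 0.145 and 0.163 in edgeR. Of 15 genes whose reporters mark skeletal stem cells, 13 were tested, 6 higher and 7 lower. The 1 DEG among them was *Pthlh*, the gene of the parathyroid hormone-related protein of the resting zone, at 114, 219 and 97.9 CPM in LRCs and 58.0, 74.7 and 31.2 CPM in non-LRCs, a log2 fold change of 1.39 ± 0.19 (SE) with an adjusted p of 0.039 in edgeR. *Pthlh* was not called without experiment 1 or without the block.

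The tested genes whose levels followed *Cd44* most closely over the 6 libraries, by the Euclidean distance of log2 CPM centred on each gene's mean, were *Zcchc14* (0.15), *Yap1* (0.31) and *Tnfrsf1a* (0.31). For *Cd200* they were *Fam13a* (0.26), *Ttk* (0.40) and *Rab27b* (0.44). None of the 6 was a DEG. The libraries share depth and experiment, which enter these distances.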

How the data were processed

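RNA of 3 LRC and 3 non-LRC libraries was amplified and sequenced as 50-base single-end reads. The authors aligned them to mm10 (GRCm38) with TopHat2 2.0.13 and Bowtie2 2.2.1 (versions from the submitters' processing notes) and used HTSeq to count, for each gene, the reads that mapped without ambiguity; annotation and strand setting are not given in the sources used here. The deposited raw counts per gene were used. The deposited tables of counts divided by DESeq2 size factors and of rlog values were not used here.

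Groups and experiment numbers came from the sample labels. In edgeR 4.0.16 (R 4.3.3), filterByExpr (minimum count 10, minimum total 15) kept 13728 of 23159 genes for the TMM scaling and quasi-likelihood test. The experiment was a block, as in the study's paired model, and same-numbered libraries deviated from their group means together (Pearson r across genes of 0.20, 0.29 and 0.34). p-values were adjusted over all genes tested (Benjamini-Hochberg). They measure how the change from non-LRC to LRC spreads between pools of littermates. The block takes out differences in level between the pools. Log2 CPM used a prior count of 2. Chi-square statistics per gene of 177 to 803 between libraries showed no copy. Fits were tested on simulated data.

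Alternatives were no block, DESeq2 1.42.0, limma-voom (limma 3.58.1), edgeR with the size factors of DESeq2, a filter of 10 counts in all libraries or none, each experiment left out, thinning to 18943789 counts, and a prior count of 0.5. Lengths, positions and sequences came from GENCODE vM21, with 12386 tested genes matched by symbol. The surface markers and lists were chosen with earlier results of these data known. Named were all 10 markers, each DEG of a list or else its 2 genes of smallest p, the 3 genes nearest to *Cd44* and *Cd200*, and markers of other cell types. Others, such as *Enpp1*, *Has2*, *Tgfbr2*, *Cd24a*, *Itgav* and *Cd164*, were named for their role after their values were seen. *Slc29a1* and *Adora1* were named for their direction, also after their values were seen. Also read were chondrocyte markers (10 of 11 tested lower in LRCs, no DEG), osteoblast markers (6 tested, 1 DEG, *Col1a1*, higher in LRCs), erythroid markers (1 tested, no DEG) and skeletal muscle markers (4 tested, no DEG).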

Additional observations from a re-analysis of the deposited data

How the results depend on the processing

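The fits with and without the paired design differed in their calls. Against 166 DEGs over all genes, the fit without the replicate block gave 1, DESeq2 799, limma-voom 621 and a minimum of 10 counts in every library 434, and leaving out 1 experiment gave 35 (without experiment 1) to 555 (without experiment 2). Of the surface markers, 0 were called, and 1 (*Cd200*, log2 fold change -1.05) in DESeq2. Of the other progenitor surface markers, 1 was called, against 0 without the block, 3 in DESeq2, in limma-voom, with at least 10 counts in every library and without a filter, 2 with DESeq2 size factors and after thinning, and 0 to 4 with 1 experiment left out. Of the partner genes, 4 were called, against 0 without the block, 12 in DESeq2, 7 in limma-voom and 0 to 6 with 1 experiment left out. Directions turned in genes that no fit called: *Eng* (log2 fold change 0.14 without the block, 0.0072 after thinning, -0.61 to 0.23 with 1 experiment left out), *Mcam* (0.17 without the block, 0.21 in limma-voom, -0.96 to 0.54), *Ly6a* (-0.14 to 0.50) and *Enpep* (-2.30 to 3.53). The cause was not tested. In 101 further values of single markers (fitted or within 1 experiment), the direction and any DEG call stayed as they were, although *Cd44* had an adjusted p of 0.003 in DESeq2 and 0.017 in limma-voom, against 0.120 in edgeR, and *Cd200* changed less than 2-fold in limma-voom (-0.86), after thinning (-0.98) and without experiments 2 (-0.80) or 3 (-0.94). Sizes of changes within 1 experiment moved with the prior count where 1 of the paired libraries was at 0. At a prior count of 0.5 in place of 2, *Enpep* went from 6.06 to 8.04 in experiment 1 and from -5.23 to -7.20 in experiment 2. *Cd34* went from 5.63 to 7.61 in experiment 1. *Thy1*, *Enpep* and *Cd34* had no value where they failed a filter. Floors cover only the counting error of a count of 0, not that of the count set against it nor the spread between pools. The shallow LRC library of experiment 2 limits what can be said of *Thy1*, *Enpep*, *Cd34* and *Mcam*.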
